A study of Mus musculus with 4 samples.

Results

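Integrins, filamin A and the proteins that join them to the actin cytoskeleton were followed in total RNA of the mouse mitral valve, measured on 4 single-colour arrays. The genes were Flna (filamin A), Rflnb (refilin B), Tln1 (talin 1), Vcl (vinculin), and the integrin subunits Itga5, Itga6, Itgav, Itgb1 and Itgb5. All probe sets annotated to exactly 1 of these 9 genes were used, 23 of the 22690 on the array. Of the genes, 8 were taken for their function, whereas Rflnb was chosen by its intensity, which was low on the mutant arrays, so its values are a description with no test.

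The homozygous (Hom) group held 1 array, labelled with 2 copies of the C1039G allele of fibrillin-1, the glycoprotein of extracellular microfibrils. The heterozygous (Het) group held 2 arrays, with 1 mutant copy beside a wild-type copy, and the wild-type (WT) group was a single array. The Het labels name the affected residue but not its substitute, and here they are read as the same allele. Strain, age, sex and the number of animals behind each array were not given in the sources used here, so p-values measure only the spread between these arrays. Fibrillin-1 itself was not analysed here. Values are intensities after scaling every array to 1 median, and a difference is on the log2 scale. Where 2 Het values follow each other, replicate 1 precedes replicate 2.

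Integrins are pairs of an alpha and a beta subunit that bind matrix proteins outside the cell. Talin binds the tail of the beta subunit and switches the receptor on, and vinculin then ties talin more firmly to actin at sites called focal adhesions. Filamin A cross-links actin filaments and also binds beta tails, where it competes with talin, and refilin B binds filamin and helps it to bundle actin. In people, mutations in the filamin A gene cause an X-linked form of heart valve disease. Integrins with the alpha 5 or the alpha v subunit bind the RGD motif, which fibrillin-1 and fibronectin both carry.

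Promoter windows were taken for the genes whose readings spread most among those measured well, refilin B, integrin beta 1 and vinculin, so that the sequence in front of each gene can be set beside its values. Each is given 5′ to 3′ on the gene's own strand, from 250 bases before the start to 50 after it, from RefSeq on GRCm38.p6. Capitals mark matches on either strand to the GC box (GGGCGG), the TEAD core (GGAATG), the TATA box (TATAAA) and the CArG box of serum response factor; where GC boxes overlap, the capitals run together. The windows are chr11:76027733-76028032 on the minus strand for Rflnb, chr8:128685404-128685703 on the plus strand for Itgb1, and chr14:20929148-20929447 on the plus strand for Vcl.
Rflnb: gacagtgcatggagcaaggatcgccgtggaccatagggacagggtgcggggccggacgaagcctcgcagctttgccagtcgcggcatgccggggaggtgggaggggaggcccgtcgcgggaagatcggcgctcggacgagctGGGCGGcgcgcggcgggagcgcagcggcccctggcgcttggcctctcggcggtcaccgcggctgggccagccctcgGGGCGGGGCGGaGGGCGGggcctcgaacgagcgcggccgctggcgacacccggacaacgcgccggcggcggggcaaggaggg
Itgb1: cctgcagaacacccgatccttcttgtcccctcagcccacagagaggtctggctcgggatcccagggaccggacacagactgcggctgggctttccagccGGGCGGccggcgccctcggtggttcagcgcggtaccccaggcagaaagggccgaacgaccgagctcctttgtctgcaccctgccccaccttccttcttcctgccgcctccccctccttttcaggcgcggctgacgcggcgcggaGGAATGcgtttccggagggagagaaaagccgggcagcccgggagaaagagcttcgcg
Vcl: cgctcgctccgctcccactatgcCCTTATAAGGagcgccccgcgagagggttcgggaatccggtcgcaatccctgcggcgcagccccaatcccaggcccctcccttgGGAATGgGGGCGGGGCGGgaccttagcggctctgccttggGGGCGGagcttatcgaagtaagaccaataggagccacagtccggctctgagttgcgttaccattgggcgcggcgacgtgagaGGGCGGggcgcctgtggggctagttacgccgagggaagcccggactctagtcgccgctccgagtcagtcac

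The Vcl window held the CArG box CCTTATAAGG, which began 227 bases before the start, and 4 GC boxes. A CArG box was present in 1.63% of 32851 mouse promoter windows of the same length, and in 1 of the 8 windows found for the 9 genes; there was no entry for Itga6. GC boxes were common, in 35.7% of all windows and 7 of these 8, with 4 in the Rflnb window. The TEAD core was in 3 of the 8 windows, Flna, Itgb1 and Vcl, and in 14.7% of all windows. No TATA box of these letters was found in the 8 windows, and 13.6% of all windows held one. A match describes the letters of the window and not binding.

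Of the 23 probe sets, 14 had a mean intensity over the 4 arrays of 62.5 or more, which is the middle value among probe sets, and entered the tests. They covered 8 of the 9 genes, Itga5 being the exception. Another 5 probe sets read below an intensity of 18.9 on every array; 3 of them were for Itgb1, 1 for Itgav and 1 for Vcl. That intensity, the 25th percentile of all values, was used as a floor, so a fold against a value below it is a lower bound. The remaining 4 dim probe sets were 2 for Itga5, 1 for Itgav and 1 for Itgb1.

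**Figure D1:**
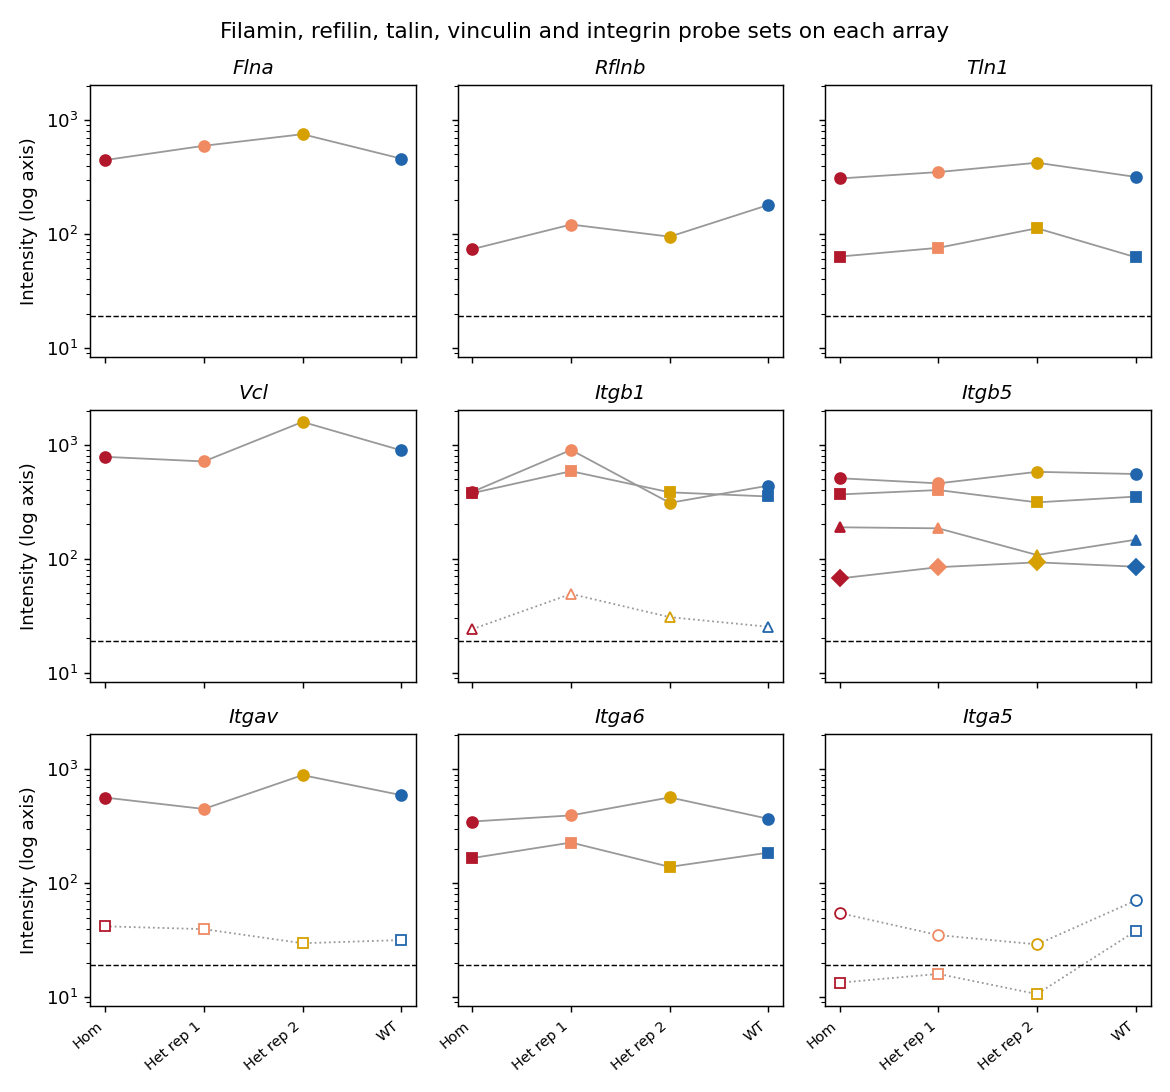
Intensity on a log axis in Hom, Het replicate 1, Het replicate 2 and WT for every probe set with at least 1 array above the floor. Lines join the arrays of 1 probe set, open symbols and dotted lines mark probe sets below the filter on mean level, and the dashed line is the floor of 18.9. Rflnb and Itga5 are highest in WT, Itgb1 is highest in Het replicate 1, and Flna, Tln1, Vcl and the bright Itgav probe set are highest in Het replicate 2.

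The arrays differed in ways that bear on these genes. The 9 valve interstitial markers all passed the filter, and their summed intensity was 38990 in Hom, 41824 and 31290 in Het and 49118 in WT. All 12 cardiomyocyte markers also passed, with sums of 39726 in Hom, 53082 and 22197 in Het and 40773 in WT. Het replicate 2 read lower than Het replicate 1 for 11 of the 12. Myl7 went the other way, at 3040 against 1306. On Het replicate 2 the 12 macrophage markers summed to 7837, against 3747 to 4605 on the other arrays, the 8 platelet markers to 4439, against 1244 to 2472, and the 7 smooth muscle markers to 6985, against 3790 to 4396. Most of the last sum was Acta2 and Tagln, at 4311 and 2352.5 on that array, whereas Smtn and Des read lowest there, at 69.5 and 72.0, against 109 and 148 in WT. Itgb3 of the platelet list and Myh11 of the smooth muscle list were below the floor on every array. Of the 11 macrophage markers that passed the filter, 10 were above WT on Het replicate 2. Adgre1 read lowest on that array, at 285, against 313 in WT. The 3 erythroid markers measured summed to 3039 there and 1062 to 1311 elsewhere. The 4 adipocyte markers summed to 1297 there and 2376 to 2850 elsewhere, with Adipoq below the floor throughout. Retn of that list was not lower there than in WT, at 68.5 against 68.0. The 10 endothelial markers summed to 4225 there and 4535 to 5179 elsewhere. Of these, Vwf was highest there, at 670, Pecam1 and Egfl7 were lowest in Hom, and Nfatc1 was lowest on Het replicate 1. The Actb 3′ to 5′ ratio, a sign of RNA integrity, was 3.04 on Het replicate 2 and 2.16 to 2.25 on the other arrays. For Gapdh the ratio was 3.84 in Hom, 3.19 and 4.65 in Het and 4.18 in WT. In bulk tissue, fewer cells of a type and less RNA per cell cannot be told apart. The part of these differences in the results below was not tested.

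Filamin A read alike in Hom and WT, and higher on both Het arrays. Flna read 447 in Hom, 596 in Het replicate 1 and 753 in Het replicate 2, against 459.6 in WT. Hom and WT lay next to each other, and both Het arrays lay above them. The difference from WT was -0.04 in Hom (SE 0.56), which turned to 0.01 after quantile normalization, and 0.54 for the mean of the Het arrays (SE 0.49). With the scaling of the arrays varied, Flna stayed above WT by 0.38 to 0.41 in Het replicate 1 and by 0.38 to 0.71 in Het replicate 2. Part of the second value came with the centring, since the median probe set lay 0.18 above WT on that array; relative to it, Flna was 0.54 above.

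Refilin B, the filamin partner, was lower on the mutant arrays than in WT. Rflnb read 73.7 in Hom, 121 in Het replicate 1 and 94.9 in Het replicate 2, against 180.3 in WT, by its only probe set. All 3 mutant arrays lay below WT, and Hom was the lowest. Hom was 2.45-fold below WT, Het replicate 1 was 1.49-fold below and Het replicate 2 was 1.90-fold below. With the scaling varied the Hom difference ran from -1.32 to -1.25, and that of Het replicate 2 from -1.16 to -0.93. These are the values for which the gene was chosen. The sum of interstitial markers was also lower on the 3 mutant arrays than in WT, at 31290 to 41824 against 49118. That sum was lowest on Het replicate 2, and Rflnb was lowest in Hom. All 9 markers lay below WT in Hom and on Het replicate 2, and 8 did on Het replicate 1. A link between the markers and Rflnb was not tested.

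The genes whose pattern over the 4 arrays lay closest to that of Rflnb, by Euclidean distance between log2 values after subtracting each gene's mean, were Tcl1b3 (0.09), Hebp1 (0.17) and Ip6k1 (0.20), where the median distance of 7308 genes was 1.09. Tcl1b3 read 546 in Hom, 909 and 690.1 in Het and 1426 in WT, so that it shared with Rflnb a high WT and a low Hom array. For Flna the closest were Sirt7, Chordc1 and Tmem11, at distances of 0.06 each, with a median distance of 0.62. With 4 arrays, such likeness is a description of these hybridisations.

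Talin 1 followed the order of filamin A on the brighter of its 2 probe sets. That probe set read 308 in Hom, 350.4 and 423 in Het, and 318 in WT. The dimmer one read 63.4 in Hom, 75.7 and 113 in Het, and 62.6 in WT. On both, Hom and WT were within 0.05 of each other and Het replicate 2 was the highest, by 0.41 and 0.85 relative to WT. The mean of the Het arrays differed from WT by 0.28 (SE 0.48) and 0.56 (SE 0.50). Relative to the median probe set of Het replicate 2, the 2 differences were 0.24 and 0.67.

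Vinculin was high on 1 Het array only. Vcl read 784 in Hom, 714 in Het replicate 1 and 1589 in Het replicate 2, against 894 in WT. Het replicate 2 stood apart, at 2.22 times the other Het array, while Hom, Het replicate 1 and WT lay within 0.32 of WT. With the scaling varied, the difference of Het replicate 2 from WT was 0.49 to 0.83, and that of Het replicate 1 was -0.32 to -0.29. The other Vcl probe set, below the floor on all 4 arrays, gave no comparison.

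Integrin alpha v, which pairs with beta 5 and other beta subunits in receptors that can release active TGF-beta from its latent complex, showed the same order as vinculin. The bright Itgav probe set read 566 in Hom, 449 in Het replicate 1 and 890.5 in Het replicate 2, against 594 in WT. Hom and WT differed by 0.07, and the Het arrays lay on either side of both. A second, dim probe set read 41.9 in Hom, 39.5 and 29.7 in Het and 31.7 in WT, and there Het replicate 2 was the lowest. The 2 probe sets therefore disagree about Het replicate 2.

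Integrin beta 1, the partner of alpha 5, alpha 6 and many other alpha subunits, was high on the other Het array. Its brightest probe set, of a type that reads several transcripts of the gene, read 386 in Hom, 901 in Het replicate 1 and 309 in Het replicate 2, against 438 in WT. Het replicate 1 was 2.06-fold above WT, and the Het arrays lay 2.92-fold apart, the widest gap between them among the 14 probe sets. A second probe set read 376 in Hom, 586 and 382 in Het and 352 in WT. A dim probe set, of a type that can bind transcripts of other genes, read 24.0 in Hom, 49.0 and 30.6 in Het and 25.2 in WT.

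Het replicate 1 was thus the highest array on all 3 Itgb1 probe sets that read above the floor, by differences from WT of 1.04, 0.74 and 0.96. Het replicate 2 was the lowest array only on the first, where it lay 0.50 below WT; on the second it was 0.12 above. The 3 other Itgb1 probe sets were below the floor on every array. The mean of the Het arrays differed from WT by 0.27 (SE 0.61) on the first and 0.43 (SE 0.50) on the second. The sum of cardiomyocyte markers was likewise highest on Het replicate 1 and lowest on Het replicate 2, at 53082 and 22197, against 40773 in WT. Of those 12 markers, 9 were above WT on Het replicate 1, while 3, Myh6, Myl3 and Myl7, were below it. Myl7 was highest on Het replicate 2, at 3040. A link between the markers and Itgb1 was not tested.

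Integrin beta 5, a vitronectin receptor subunit, varied little on its brighter probe sets. All 4 of its probe sets passed the filter. The brightest, of a type that can bind transcripts of other genes, read 509 in Hom, 458 and 579 in Het and 554 in WT. The second read 366 in Hom, 401 and 312 in Het and 351 in WT. Neither spread more than 1.28-fold over the 4 arrays. The next read 189 in Hom, 185 and 108 in Het and 147 in WT, with Het replicate 2 the lowest. The dimmest, of the same type as the brightest, read 67.0 in Hom, 84.1 and 92.8 in Het and 85.0 in WT. Hom minus WT ran from -0.34 to 0.36 over the 4 probe sets, with both signs, and Het replicate 2 was the highest array on 2 of them and the lowest on the other 2. For the brightest, Het replicate 2 was 0.06 above WT, but 0.25 below after quantile normalization and 0.17 below with the scaling as deposited.

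Integrin alpha 6, a laminin receptor subunit, had 2 probe sets that disagreed on Het replicate 2. The brighter read 349 in Hom, 394 and 567 in Het and 368 in WT. The dimmer read 166 in Hom, 228 and 139 in Het and 186 in WT. Het replicate 2 was the highest array on the first, 0.63 above WT, and the lowest on the second, 0.42 below. Hom lay slightly below WT on both, by differences of -0.08 (SE 0.57) and -0.16 (SE 0.59).

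Integrin alpha 5, which with beta 1 forms the classical fibronectin receptor, was dim and lowest in Het. Its brighter probe set read 54.8 in Hom, 35.0 in Het replicate 1 and 29.0 in Het replicate 2, against 70.6 in WT. Hom was 1.29-fold below WT and the Het arrays were 2.01-fold and 2.43-fold below. The second, of a type that can bind transcripts of several genes, was above the floor only in WT, at 38.1, with 13.4 in Hom and 16.0 and 10.6 in Het; each mutant array was at least 2.01-fold lower. All 3 mutant arrays thus lay below WT on both probe sets. With the scaling varied, the brighter one differed from WT by -0.38 to -0.33 in Hom, -1.06 to -0.99 in Het replicate 1 and -1.52 to -1.20 in Het replicate 2. With the filter lifted, limma gave the brighter probe set an adjusted p of 0.676 for Het against WT and 1 for Hom against WT. As with Rflnb, the sum of interstitial markers was also highest in WT. Among the mutant arrays that sum was highest on Het replicate 1, and the brighter Itga5 probe set was highest in Hom. Of the 9 markers, 7 read higher on Het replicate 1 than in Hom. The other 2, Postn and Lum, were highest in Hom among the mutant arrays, at 8656 and 3603. A link between the markers and Itga5 was not tested.

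**Figure D2:**
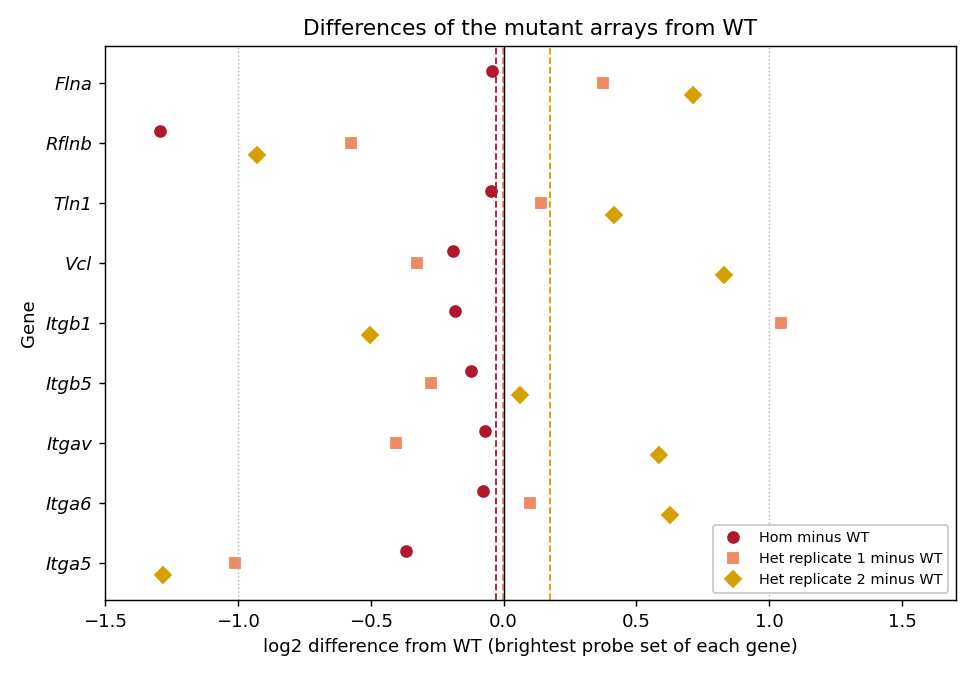
Log2 difference from WT of Hom (circles), Het replicate 1 (squares) and Het replicate 2 (diamonds) for the brightest probe set of each gene. Dashed lines in the same colours are the medians of all 10397 probe sets tested, and dotted lines mark 2-fold. The Hom points of 8 genes lie between -0.37 and -0.04, while Rflnb is at -1.29; the Het points are wider apart.

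The comparison of Hom with WT asked what differs when both fibrillin-1 copies are mutant. By the brightest probe set of each gene the median difference was -0.12, and -0.10 without Rflnb, beside a median of -0.03 over all 10397 probe sets tested. Of the 13 tested probe sets other than that of Rflnb, Hom was below WT on 9 and above it on 4, which were 1 of Itgb1, 2 of Itgb5 and the dimmer of Tln1, beside 53.8% of all probe sets below WT. The dim Itgav probe set was also above WT, by 0.40. The directions of Flna and Tln1 turned after quantile normalization, to 0.01 and 0.003. Apart from Rflnb and Itga5, the differences on the brightest probe sets were between -0.19 and -0.04. Of the 14 probe sets tested, 1 was at least 2-fold apart, that of Rflnb, which the choice of genes fixed, beside 1.21% of all probe sets. None of the other 13 was. Itga5 was not among the tested ones.

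Het was set against WT to ask about the loss of 1 normal copy. In Het replicate 1, 1 of the 14 probe sets was at least 2-fold apart from WT, the brightest of Itgb1, beside 2.06% of all. In Het replicate 2, 0 of 14 were, beside 7.94% of all. Without Rflnb, whose low intensity on the mutant arrays led to its choice, the median of the other 8 genes was -0.09 in Het replicate 1, with 4 above WT and 4 below, beside -0.0008 for all probe sets. In Het replicate 2 it was 0.50, beside 0.18. With Rflnb the medians of the 9 genes were -0.27 and 0.41. After quantile normalization the second of these was 0.10, and with the scaling as deposited it was 0.18. The first became 0.10 when only genes above the 75th percentile of mean level were kept.

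Both Het arrays lay above WT and above Hom on 5 of 14 probe sets, those of Flna, both of Tln1, the brighter of Itga6 and the second of Itgb1, beside 32.7% of all probe sets lying on 1 side of both in either direction. All 3 mutant arrays lay above WT on 2 of 14, beside 22.9% of all. They lay below it on 1 of 14, Rflnb, which the choice of genes fixed, beside 16.1%. No other tested probe set of these genes had all 3 below.

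The comparison of Hom with Het asked how 2 mutant copies differ from 1. Relative to Het replicate 1, 1 of 14 probe sets was 2-fold apart in Hom, the brightest of Itgb1, beside 1.74% of all. Relative to Het replicate 2 it was 1 of 14, Vcl, beside 8.53%. Among the 13 tested probe sets other than that of Rflnb, the lowest differences between Hom and the mean of the Het arrays were -0.59 for Flna (SE 0.49) and, for Tln1, -0.54 on the dimmer probe set (SE 0.50). The median of all probe sets tested was -0.11, and relative to it these differences were -0.48 and -0.43. Rflnb was also lower in Hom than the Het mean, by a difference of -0.54, and the dim Itgb1 probe set by one of -0.69.

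In limma's test across all 10397 probe sets, none of the 13 probe sets other than that of Rflnb passed a Benjamini-Hochberg adjusted p of 0.05 in any of the 3 comparisons. The adjusted p was at least 0.9998 for each, and 0 of the 13 passed an unadjusted 0.05. Over all probe sets 0 passed (0% in each comparison), and 51 passed an unadjusted 0.05 for Hom against WT, 105 for Het against WT and 82 for Hom against Het. The spread came from the Het pair, with 1 residual degree of freedom, so a p above the threshold is no evidence of equal levels.

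**Figure D3:**
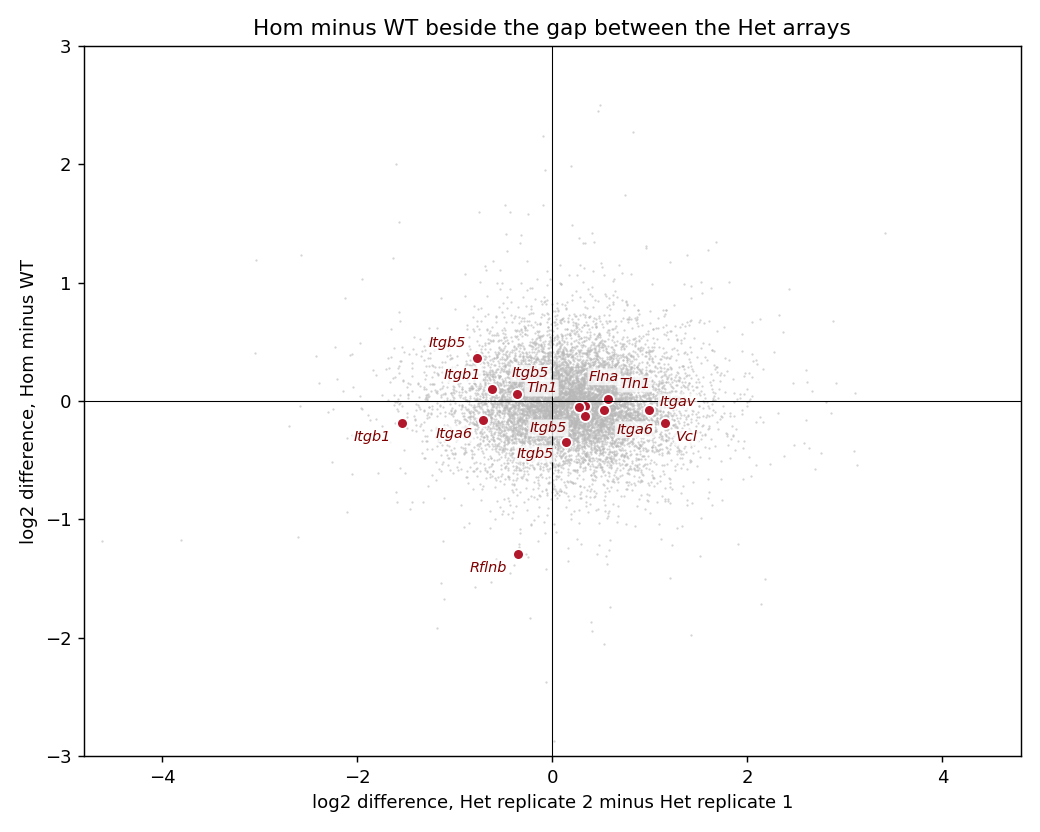
Log2 difference of Hom minus WT (vertical) against Het replicate 2 minus Het replicate 1 (horizontal) for the 14 probe sets tested (red, labelled by gene) and all 10397 (grey). Most red points lie nearer the horizontal axis than the vertical one, from Itgb1 at -1.54 to Vcl at 1.15, and Rflnb lies low at -1.29.

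The Het arrays were further apart than Hom and WT on most of these probe sets, as on most probe sets of the array. The Hom minus WT difference was smaller than the gap between the Het arrays on 12 of 14 probe sets, beside 70.9% of all. The exceptions were Rflnb and the dimmest Itgb5 probe set. Het replicate 2 was the highest or the lowest array on 12 of 14, beside 72.9% of all, and Hom and WT both lay between the Het arrays on 6 of 14, beside 29.2%. The Het arrays were at least 2-fold apart on 2 of 14, Itgb1 and Vcl, in opposite directions, beside 11.2%.

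The 5 lists in the plot of adhesion genes held genes of the adhesion pathway, among them the 9 genes followed here. Of these 9, 5 were on the list of integrin subunits, 2 on the filamin list and 2 on the list of talin, kindlin and vinculin adaptors. No test is reported for Rflnb. Of the other genes in the lists, none passed limma's adjusted threshold in any comparison, in either direction. Of the 9 integrin subunits that passed the filter, 7 lay below WT in Hom, beside 53.8% of all probe sets tested. Among these 7 were Itga6, Itgav, Itgb1 and Itgb5, described above. The median of the 9 was -0.12, where all 7309 genes had -0.02. Itgb4, the laminin-binding partner of alpha 6, read 105 in Hom, 67.7 and 89.5 in Het and 151 in WT, and was below WT on all 3 mutant arrays. Itga9 read 238 in Hom, 179.6 and 128 in Het and 235 in WT, with both Het arrays low.

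Of the integrin subunits known from blood cells, Itga2b and Itgb2 passed the filter, and both were highest on Het replicate 2. Itga2b, the alpha subunit of the platelet fibrinogen receptor, read 167 in Hom, 187 and 327 in Het and 139 in WT. Itgb2, the beta subunit of leukocyte integrins, read 66.0 in Hom, 61.6 and 169 in Het and 80.7 in WT. Others, below the filter, did not stand out on that array alone. Itgax read 56.9 in Hom, 59.2 and 61.9 in Het and 64.1 in WT, and Itgal 60.5 in Hom, 12.5 and 60.0 in Het and 21.1 in WT. Itgb7 was above the floor only on Het replicate 1, and Itga4, Itgam, Itgae and Itgb3 were below it on Het replicate 2; these genes were chosen after their values were seen. Fermt3, the kindlin of blood cells, read 49.0 in Hom, 100.3 and 427 in Het and 71.2 in WT, the highest Het difference of the 17 talin, kindlin and vinculin adaptors. The platelet and macrophage sums given above were also highest on that array; Itga2b is itself on the platelet list, while Itgb2 and Fermt3 are on neither.

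The adaptor list had a median of -0.17 in Hom, -0.07 in Het replicate 1 and 0.26 in Het replicate 2, beside -0.02, -0.002 and 0.19 for all genes. Tns1, the focal adhesion protein tensin 1, was at least 2-fold below WT in Het replicate 2, at 201, with 460.1 in the other Het array, 420.1 in Hom and 491 in WT. Zyx, zyxin, had the highest Hom difference among the 17 genes of the list that passed the filter, 0.31. The 6 filamin-list genes that passed, Flna and Rflnb among them, had medians of -0.05, -0.06 and 0.21. Cav1, caveolin 1, which binds filamin A, read 1579 in Hom, 1636 and 2872 in Het and 1740 in WT, an order led by Het replicate 2 as for Flna.

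Among the 16 focal adhesion kinases and scaffolds that passed the filter, 9 were below WT in Hom and 7 above. Of all probe sets tested, 53.8% were below. The median of the 16 was -0.09. Lims2, a partner of integrin-linked kinase, read 76.8 in Hom, 112 and 123 in Het and 143 in WT, a Hom difference of -0.90, and Parva, alpha-parvin of the same complex, read 128 in Hom, 174 and 296 in Het and 214 in WT. Crkl, an adaptor of the Crk family, read 355 in Hom, 298 and 244 in Het and 222 in WT, above WT on every mutant array. Crk itself, the founding adaptor of that family, read 478 in Hom, 498 and 385 in Het and 684 in WT, below WT on every mutant array.

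Of the 18 integrin ligands that passed the filter, 11 were below WT in Hom, with a median of -0.15, beside 53.8% of all probe sets below. Tnc, tenascin C, had the highest Hom difference of these at 0.88, and Ccn2, a matricellular protein, read 876 in Hom, 757 and 2378 in Het and 776 in WT.

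**Figure D4:**
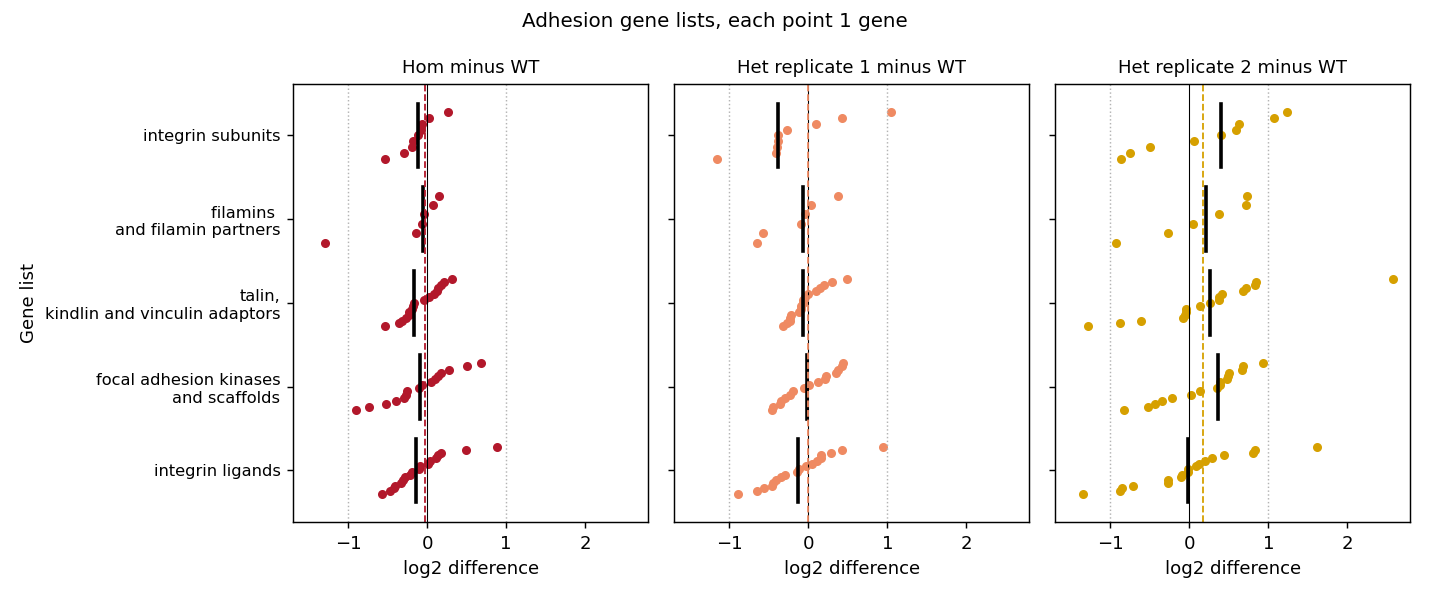
Log2 differences from WT of genes in 5 adhesion lists for Hom, Het replicate 1 and Het replicate 2, with 1 point for each gene that passed the filter. Black bars are list medians, coloured dashed lines the median of all probe sets tested, and dotted lines mark 2-fold. Rflnb is the lowest Hom point at -1.29, and Fermt3 is the highest point in Het replicate 2 at 2.58.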

How the data were processed

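The authors deposited 1 intensity per probe set on a linear scale for 4 arrays of mitral valve RNA; their software is not given in the sources used here. The deposited arrays share a mean of 150.1 once the top and bottom 2% of probe sets are removed, and have medians of 54 to 65.5. As their log2 medians spanned 0.28, every array was scaled to the same median, which raised Het replicate 2 by 0.19. Intensities under the 25th percentile (18.9) were set to it before taking log2.

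Gene names came from the platform annotation, which gave 20380 of the 22690 probe sets a single gene, 691 more than one and 1555 no gene, besides 64 controls; for 20351 probe sets the gene identifier was matched to the reference table (GRCm38.p6). Probe sets with a mean intensity of at least 62.5 were tested (10397, for 7309 genes), with limma 3.58.1 in R 4.3.3 on 3 groups, Benjamini-Hochberg adjustment and a threshold of 0.05. The fit was tested on simulated data. Precision is limited by the number of arrays. No array was left out.

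The genes and lists were chosen with earlier results of these data known. All 9 genes were described with every probe set. In each list the 2 highest and 2 lowest genes for Hom minus WT and for the Het mean minus WT could be named, by the brightest probe set, as could any gene called. A further list is not reported here. The 3 nearest patterns were sought for Rflnb and Flna. Zyx, Cav1 and the others named from the adhesion lists follow this rule, except the blood cell integrins below the filter. Those were chosen after their values were seen. Alternatives were other scalings, filters and floors, 1 probe set per gene, eBayes with trend and robust, and each Het array left out. Plots were made in Python 3.11.15 with matplotlib 3.10.9.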

Additional observations from a re-analysis of the deposited data

How the results depend on the processing

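Limma called 0 probe sets in each comparison in 7 of 8 settings, the stated one included; after quantile normalization it called 0 for Hom against WT, 3 for Het against WT and 1 for Hom against Het, none of them for the 9 genes. With a Het array left out, limma had no residual degrees of freedom and gave no test. The count of tested probe sets of these genes at least 2-fold apart from WT in Hom was 1; it was 2 with no filter and 0 with the filter at the 75th percentile, which left out Rflnb. In Het replicate 1 it became 3 with no filter, where it was 1. In Het replicate 2 the count of 0 became 1 after quantile normalization, 1 with the scaling as deposited and 2 with no filter. The differences of the single genes from WT depend only on the 2 arrays compared and their scaling, so that other filters, other tests or a Het array left out do not enter them. Of the 54 recomputed under 2 other scalings, all moved by less than 1 SD of the fit, and 4 changed sign, none of them larger than 0.06 in size to begin with. For Itga5, which was not in the fit, the median SD of all probe sets tested was used. The medians without Rflnb were added after seeing the data. No paired analysis was possible because the WT and Hom groups hold 1 array each and share no pair of numbers with Het. Dim probe sets limit what can be seen of Itga5, and 5 probe sets below the floor give no comparison.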
